A study of Mus musculus with 15 samples.

Results

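The HOXA genes Hoxa3, Hoxa5, Hoxa6, Hoxa7, Hoxa9, Hoxa10 and Hoxa11 and the cofactor genes Meis1 and Pbx3 were followed in a mouse acute myeloid leukemia in which oncogenic NRAS was shut off. The members were the probe sets whose symbol in the array's annotation was exactly 1 of these 9 names. They came to 17 probe sets of 45101 on the array and to 8 of 18193 measured genes. Hoxa6 had no probe set under a single name of its own and was not analysed here. Hoxa7 and Hoxa11 were read by 1 probe set each, Hoxa5, Hoxa9, Hoxa10 and Pbx3 by 2 each, Meis1 by 3 and Hoxa3 by 4.

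The leukemia has the genotype NRASG12V/Mll-AF9 and was grown in SCID/Beige mice, which lack most lymphocytes. The cells were injected through the tail vein and the mice had more than 100000 white blood cells per microlitre at 20 days. In RAS-OFF mice doxycycline was injected and added to the drinking water from 0 h until sacrifice at 48, 60, 72, 84 or 96 h, with 2 arrays per time and 10 in all. RAS-ON mice received vehicle and are labelled 0 h, with 5 arrays. All 15 arrays share the genotype, the host and the spleen as the source of cells, so no group lacks Mll-AF9. Doxycycline itself and the loss of NRASG12V cannot be told apart in this design. The labels do not say which promoter drives the transgene, whether the cells come from 1 primary leukemia or whether each array is a separate mouse. P-values therefore measure the spread between these arrays, which may in part be technical.

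HOXA genes encode homeodomain transcription factors that lie in a row on 1 chromosome and are active in blood stem and progenitor cells, from which they fade as the cells mature. MLL fusion proteins bind the cluster and keep it transcribed in leukemia, with Hoxa9 and Meis1 as the best known output. HOX proteins bind DNA weakly alone and are helped by the TALE homeodomain proteins of the PBX and MEIS families, which bind beside them. Along mouse chromosome 6 the RefSeq order of the 7 HOXA members is Hoxa3, Hoxa5, Hoxa6, Hoxa7, Hoxa9, Hoxa10 and Hoxa11.

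The promoters of Hoxa5, Hoxa7 and Hoxa10 are shown because these close neighbours in the cluster differed in direction in the arrays. In the brightest probe set of each, the groups did not overlap. Each window runs from 250 bases before to 50 bases after a RefSeq start and is given 5′ to 3′ on the minus strand of GRCm38.p6. Hoxa5 lies at chr6:52204538-52204837 and Hoxa7 at chr6:52218524-52218823. Hoxa10 has a start nearer Hoxa9, at chr6:52234890-52235189, and a start nearer Hoxa11, at chr6:52240805-52241104. Capitals mark matches to the motifs named after the sequences.
Hoxa5 promoter: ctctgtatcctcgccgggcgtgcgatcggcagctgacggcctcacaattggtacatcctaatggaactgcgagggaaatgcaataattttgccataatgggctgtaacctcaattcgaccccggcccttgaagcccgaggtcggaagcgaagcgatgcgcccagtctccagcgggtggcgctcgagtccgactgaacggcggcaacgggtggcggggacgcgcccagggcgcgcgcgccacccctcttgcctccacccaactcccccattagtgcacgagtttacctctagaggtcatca
Hoxa7 promoter: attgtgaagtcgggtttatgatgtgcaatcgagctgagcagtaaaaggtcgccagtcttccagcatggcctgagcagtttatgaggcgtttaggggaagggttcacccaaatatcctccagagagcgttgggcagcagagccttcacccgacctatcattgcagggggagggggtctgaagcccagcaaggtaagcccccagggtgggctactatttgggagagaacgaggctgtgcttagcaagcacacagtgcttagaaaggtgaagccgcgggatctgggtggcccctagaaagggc
Hoxa10 promoter, start nearer Hoxa9: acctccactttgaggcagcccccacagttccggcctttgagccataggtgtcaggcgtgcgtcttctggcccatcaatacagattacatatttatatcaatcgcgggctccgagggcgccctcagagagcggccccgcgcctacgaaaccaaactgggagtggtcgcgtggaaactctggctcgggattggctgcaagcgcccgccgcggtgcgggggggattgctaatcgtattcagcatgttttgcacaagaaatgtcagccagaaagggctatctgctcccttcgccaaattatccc
Hoxa10 promoter, start nearer Hoxa11: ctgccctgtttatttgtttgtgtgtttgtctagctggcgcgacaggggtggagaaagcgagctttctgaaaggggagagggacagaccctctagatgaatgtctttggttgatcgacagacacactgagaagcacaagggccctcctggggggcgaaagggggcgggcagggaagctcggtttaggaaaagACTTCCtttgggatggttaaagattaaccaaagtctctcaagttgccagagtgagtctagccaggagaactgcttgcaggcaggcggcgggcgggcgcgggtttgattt
The windows hold 29 CpG pairs in Hoxa5, 9 in Hoxa7, 21 in the Hoxa10 window nearer Hoxa9 and 12 in the other Hoxa10 window. Their GC content was 61.7%, 55.7%, 57.3% and 54.3% in the same order, against a median of 52.7% over 32851 promoters of the same length. RefSeq windows were at hand for 8 of the 9 member genes, 9 windows in all, and were searched on both strands. The motifs were TGATNNAT for PBX-HOX, TGACAG for MEIS, GGAAGT for ETS factors, TGANTCA for AP-1 and CACGTG for the E-box. They occurred in 8.85%, 19.2%, 23.8%, 7.81% and 7.15% of the 32851 promoters, in that order. Those promoters do not cover every chromosome. In the Hoxa10 window nearer Hoxa11 the ETS motif, read here as its reverse complement ACTTCC, began at base -59 from the start. The other matches among the 9 windows were a MEIS motif in Hoxa3 and an ETS motif in Meis1, each at base -13. The letters searched were not found in the Hoxa5 and Hoxa7 windows. A match is a description of the letters and not of a bound site.

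The values are log2 intensities from RMA, a method that corrects background, aligns the arrays to each other and combines the probes of a set. A difference of 1 is a 2-fold difference. Array medians lay between 149.99 and 156.53 intensity units, and precision is limited by how many arrays there are. Mpo, Elane, Prtn3 and Ctsg, which encode granule proteins of immature myeloid cells, ranked between percentiles 83.7 and 99.9 on every array, counted over the probe sets with 1 symbol. The lymphocyte genes Cd3e and Ms4a1 ranked between percentiles 47.2 and 58.9. Other lymphocyte genes differed between the groups in both directions. Cd3d averaged 10.12 in RAS-OFF and 8.86 in RAS-ON arrays on the log2 scale, and Cd79b averaged 7.33 and 8.74. Nras averaged 10.62 ± 0.17 (SD, n = 10) on the log2 scale in RAS-OFF and 10.94 ± 0.18 (SD, n = 5) in RAS-ON arrays. The change of -0.31 ± 0.09 (SE; limma, adjusted p = 0.00725) came from probe sets made for the mouse gene, which may not read the transgene. RAS-ON arrays 1 to 3 stood apart from arrays 4 and 5. The SD over genes of the log2 difference was 0.166 to 0.219 among the first 3, 0.169 between the other 2 and 0.236 to 0.302 between the sets. The difference between the 3-prime and 5-prime Gapdh controls, a sign of RNA integrity, reached 1.22 in replicate 1 of RAS-OFF 96 h and lay between 0.10 and 0.35 in the other 14 arrays.

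The first question was whether the HOXA and cofactor transcripts differed once NRASG12V was off. In the brightest probe set of each gene, Hoxa3, Hoxa5, Hoxa7 and Hoxa11 fell, and Hoxa10 and Pbx3 rose. Hoxa9 and Meis1 did not pass the test there, though Hoxa9 did with its probe sets averaged. By size, Pbx3 rose 1.93-fold, Hoxa7 fell 1.73-fold and Hoxa10 rose 1.45-fold, while the other falls were under 0.30 on the log2 scale. This order rests on the probe set used. With probe sets averaged, Pbx3 changed by 0.70 on the log2 scale, a smaller change than that of Hoxa7 (-0.79). Of the 8 measured genes 2 were higher, where 20.1% of all genes were called higher, and 4 were lower, where 28.7% of all genes were called lower. With 8 genes these counts are not read as a difference from the rest of the array. The median change of the members was -0.19 on the log2 scale, and that of all 18193 genes was -0.04. Called means an adjusted p below 0.05 in limma, with Benjamini-Hochberg adjustment over all genes. For each gene its brightest probe set was used. These are bulk samples, in which fewer cells of a type and less RNA per cell cannot be told apart.

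**Figure D1:**
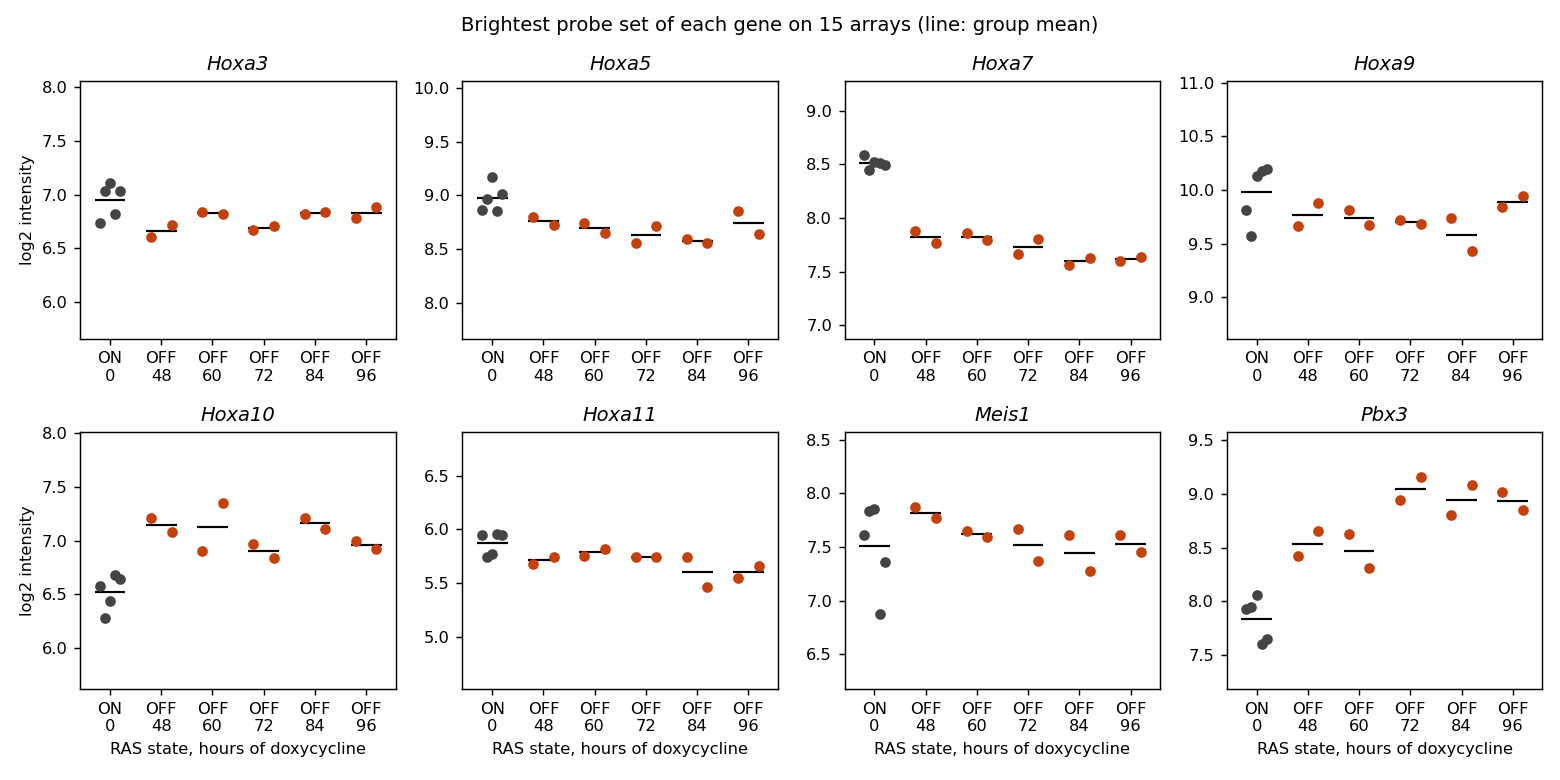
Log2 intensity (y axis, the same span in every panel) of the brightest probe set of 8 genes on each of 15 arrays, against hours of doxycycline (x axis). Orange points are RAS-OFF arrays, black points RAS-ON arrays, and lines are group means. The 10 RAS-OFF points of Hoxa7 and Hoxa5 lie below all RAS-ON points, those of Hoxa10 and Pbx3 lie above them, and the RAS-ON points of Meis1 spread from 6.88 to 7.85.

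Among the genes of the middle of the cluster, Hoxa7, which like Hoxa9 belongs to the HOX genes held active by MLL fusions, had the largest fall. Its log2 intensity was 7.88 and 7.77 at 48 h, 7.86 and 7.79 at 60 h, 7.66 and 7.80 at 72 h, 7.56 and 7.63 at 84 h, and 7.60 and 7.64 at 96 h in RAS-OFF arrays. The 5 RAS-ON arrays had 8.59, 8.45, 8.52, 8.51 and 8.49. All 10 RAS-OFF arrays were below every RAS-ON array, and the lowest were those of 84 and 96 h. The change was -0.79 ± 0.05 (SE; 95% interval -0.89 to -0.69), with an adjusted p of 3.78e-09 in limma. On each array the gene ranked between percentiles 55.4 and 60.7 in RAS-OFF and between percentiles 69.4 and 71.5 in RAS-ON. Percentiles of members, here and below, are counted over all 45101 probe sets.

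Hoxa5, which in human progenitors favours myeloid over erythroid differentiation, fell by a smaller amount. Its log2 intensity ranged from 8.56 to 8.85 with a median of 8.68 in RAS-OFF arrays, and from 8.85 to 9.17 with a median of 8.97 in RAS-ON arrays. The groups met without overlap: the highest RAS-OFF array, 96 h replicate 1, had an intensity of 460.2 units and the lowest RAS-ON array, replicate 4, had 462.7 units. The change was -0.29 ± 0.06 (SE), with an adjusted p of 0.00118 in limma. The other Hoxa5 probe set, whose suffix marks possible cross-hybridisation, changed by -0.21 (adjusted p = 0.00503 over 34945 probe sets, limma). In that probe set 9 of 10 RAS-OFF arrays were below all RAS-ON arrays.

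Of the posterior genes, Hoxa10, which in mouse and human marrow holds back myeloid differentiation, went the other way. Its log2 intensity was 7.21 and 7.08 at 48 h, 6.90 and 7.35 at 60 h, 6.97 and 6.84 at 72 h, 7.21 and 7.11 at 84 h, and 7.0 and 6.92 at 96 h in RAS-OFF arrays. The RAS-ON arrays had 6.58, 6.28, 6.44, 6.68 and 6.64. All 10 RAS-OFF arrays were above every RAS-ON array. The change was 0.53 ± 0.08 (SE; 95% interval 0.36 to 0.70), with an adjusted p of 5.56e-05 in limma. The signal was below the middle of the array in most samples, between percentiles 41.1 and 51.1 in RAS-OFF and percentiles 31.2 and 38.7 in RAS-ON arrays. The second Hoxa10 probe set was dimmer still, between percentiles 19.4 and 24.9 over all arrays, and its change was 0.05 (adjusted p = 0.578, limma). In that probe set 2 of 10 RAS-OFF arrays were above every RAS-ON array. Averaging both probe sets gave Hoxa10 a change of 0.29, with an adjusted p of 0.00196 in limma. The deposited values do not show which Hoxa10 transcript, or which of the starts printed above, each probe set reads.

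Hoxa9, the HOX gene most firmly tied to MLL-fusion leukemia, had log2 intensities from 9.43 to 9.94 with a median of 9.73 in RAS-OFF arrays. The RAS-ON arrays had 9.81, 9.57, 10.13, 10.18 and 10.20. Replicates 1 and 2 of RAS-ON thus lay inside the RAS-OFF range, and replicates 3, 4 and 5 above it. The change of -0.24 ± 0.10 (SE; 95% interval -0.45 to -0.03) had an adjusted p of 0.0554 in limma and did not pass. The gene stayed in the upper part of the array throughout, between percentiles 81.5 and 86.1 in RAS-OFF and percentiles 82.4 and 88.0 in RAS-ON arrays. Its second probe set gave nearly the same change, -0.23, and did pass (adjusted p = 0.0124, limma). That probe set ranged from 8.64 to 9.0 in RAS-OFF and from 8.80 to 9.21 in RAS-ON arrays, so the groups overlapped there too. Averaging both probe sets gave Hoxa9 a change of -0.24, which passed (adjusted p = 0.0185, limma).

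Hoxa11, best known from limb and uterus, and Hoxa3, an anterior gene of the cluster, were dim. Hoxa11 ranged from 5.46 to 5.82 with a median of 5.74 in RAS-OFF and from 5.74 to 5.96 with a median of 5.95 in RAS-ON arrays. It ranked between percentiles 17.8 and 25.2 on all arrays, and 6 of 10 RAS-OFF arrays were below every RAS-ON array. Its change was -0.19 ± 0.06 (SE; adjusted p = 0.0176, limma), which without RAS-ON replicate 1 had an adjusted p of 0.0516. Hoxa3 ranged from 6.61 to 6.89 with a median of 6.80 in RAS-OFF and from 6.74 to 7.11 with a median of 7.04 in RAS-ON arrays. Its change was -0.18 ± 0.06 (SE; adjusted p = 0.0269, limma), with 4 of 10 RAS-OFF arrays below all RAS-ON arrays. The Hoxa3 call was lost without RAS-ON replicate 2, 3 or 5 (adjusted p = 0.0751, 0.0816 and 0.0699).

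The Hoxa3 probe sets did not move together. A second one rose by 0.22 (adjusted p = 0.0198, limma), and the remaining pair changed by 0.07 and 0.00 (adjusted p = 0.577 and 0.989). Averaged over all 4 probe sets, Hoxa3 changed by 0.03 with an adjusted p of 0.7, so its direction rests on the choice of probe set. Over all 17 member probe sets, 4 were higher (23.5%, against 19.3% of all 34945 probe sets) and 6 were lower (35.3%, against 26.0%). The 4 were 1 of Hoxa3, 1 of Hoxa10 and both of Pbx3, and the 6 were 1 each of Hoxa3, Hoxa7, Hoxa9 and Hoxa11 and both of Hoxa5. Probe sets of 1 gene share their transcript and are not replicates. In Hoxa5 and Pbx3 both probe sets passed in the same direction.

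**Figure D2:**
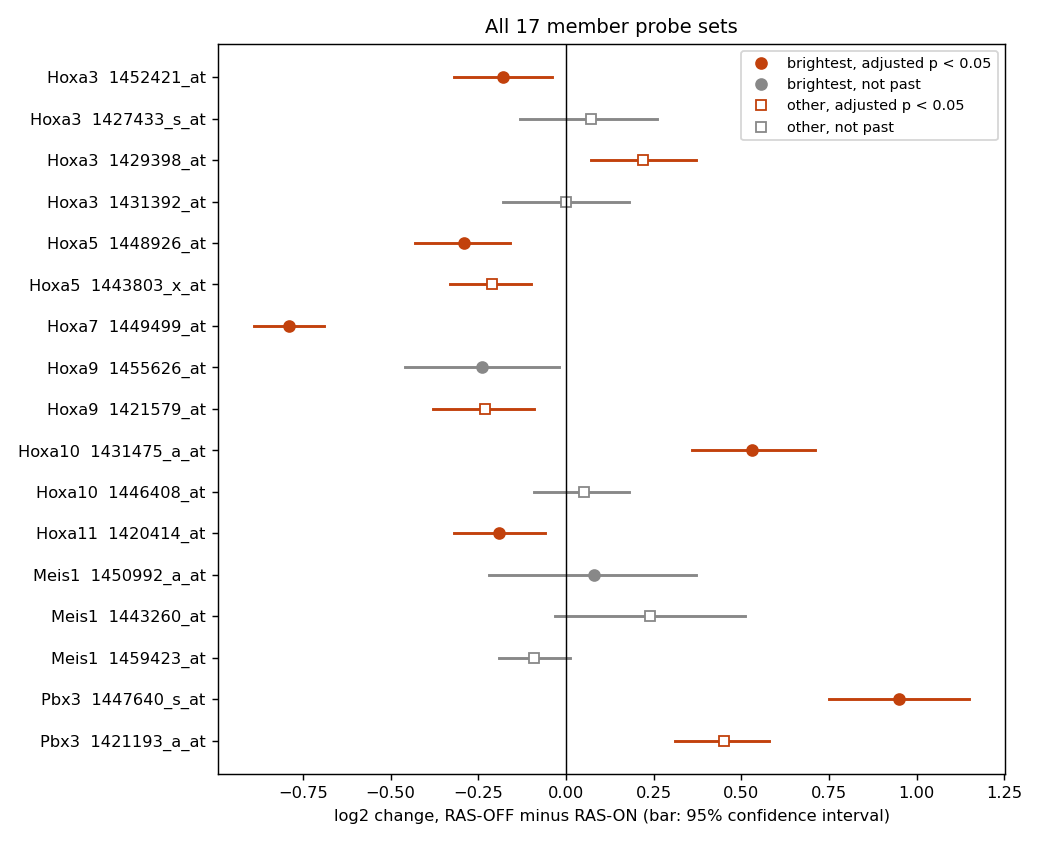
Log2 change, RAS-OFF minus RAS-ON (x axis), of each of the 17 member probe sets, with bars for the 95% confidence interval. Circles are the brightest probe set of a gene and squares the others, in orange where the adjusted p was below 0.05. The 2 probe sets of Pbx3 lie at 0.95 and 0.45, both of Hoxa5 lie below 0, and those of Hoxa3 lie on both sides.

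Meis1, the TALE cofactor that speeds Hoxa9-driven leukemia in mice, had log2 intensities from 7.28 to 7.87 with a median of 7.61 in RAS-OFF arrays. The RAS-ON arrays had 7.61, 7.84, 7.85, 6.88 and 7.36, the widest spread of the brightest member probe sets (SD 0.41). The groups overlapped almost fully. The change was 0.08 ± 0.13 (SE; 95% interval -0.21 to 0.36), with an adjusted p of 0.657 in limma. The other Meis1 probe sets changed by 0.24 and -0.09 (adjusted p = 0.131 and 0.152, limma).

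Pbx3, the PBX partner most often found with Hoxa9 and Meis1 in MLL-fusion leukemia, had the largest rise of the members. Its log2 intensity was 8.42 and 8.65 at 48 h, 8.63 and 8.31 at 60 h, 8.94 and 9.16 at 72 h, 8.80 and 9.08 at 84 h, and 9.02 and 8.85 at 96 h in RAS-OFF arrays. The RAS-ON arrays had 7.93, 7.95, 8.06, 7.60 and 7.65. Every RAS-OFF array was above every RAS-ON array, and the arrays of 72 to 96 h were above those of 48 and 60 h. The change was 0.95 ± 0.09 (SE; 95% interval 0.76 to 1.14), with an adjusted p of 6.44e-07 in limma. The other Pbx3 probe set ranged from 8.41 to 8.76 in RAS-OFF and from 7.92 to 8.31 in RAS-ON arrays, again with no overlap. Its change was smaller, 0.45 (adjusted p = 5.96e-05, limma). In this probe set the later arrays were not all above the earlier ones: 84 h replicate 1 had 8.50 and 48 h replicate 2 had 8.54.

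Groups without overlap were thus seen in the brightest probe sets of Hoxa10 and Pbx3, higher, and of Hoxa5 and Hoxa7, lower. That was 2 of 8 genes in each direction. Over all genes 9.36% had every RAS-OFF array above all RAS-ON arrays and 12.0% had every RAS-OFF array below them.

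The time course asks when the members changed. In the brightest probe sets, Hoxa7, Hoxa10 and Pbx3 passed at all 5 times, and Hoxa9 and Meis1 at none. Hoxa5 passed there at 60, 72 and 84 h, Hoxa11 at 84 and 96 h, and Hoxa3 at 48 h. At 48 h 2 members were higher (background 13.7%) and 2 lower (13.7%). At 60 h these counts were 2 (11.5%) and 2 (14.2%), and at 72 h 2 (13.4%) and 2 (18.3%). At 84 h 2 were higher (15%) and 3 lower (21.8%), and at 96 h 2 (16.7%) and 2 (20.9%). The percentages are the shares of all genes called in that direction at that time. The 5 comparisons share their 5 RAS-ON arrays, so they are not independent of each other.

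The change of Hoxa7 at 48, 60, 72, 84 and 96 h was -0.69, -0.69, -0.78, -0.92 and -0.89 in that order, each with an SE of 0.07. The change of Pbx3 was 0.70, 0.63, 1.22, 1.10 and 1.10 at the same times, each with an SE of 0.14. Both genes had thus moved by 48 h, the first time sampled. At 60 h the Pbx3 call was lost without replicate 1 of that time (change 0.47, limma adjusted p = 0.103). Hoxa10 passed at no time in its second probe set (adjusted p from 0.354 to 0.811, limma). With its probe sets averaged, it lost its call at 48, 72 and 96 h (adjusted p = 0.0611, 0.125 and 0.0661, limma). Against RAS-ON arrays 4 and 5 only, the call was lost at 72 and 96 h (adjusted p = 0.158 and 0.0813, limma). In the brightest probe set the change of Hoxa10 was 0.62, 0.60, 0.38, 0.64 and 0.43 (SE 0.12 each), with its highest adjusted p, 0.026, at 72 h in limma. Without RAS-OFF 72 h replicate 1 or 2 that p was 0.222 or 0.0685, without 60 h replicate 2 the adjusted p at 60 h was 0.0772, and without 96 h replicate 1 it was 0.101 at 96 h.

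Hoxa5 changed by -0.21, -0.28, -0.34, -0.40 and -0.23 over the 5 times (SE 0.09 each), with adjusted p values of 0.108, 0.042, 0.0129, 0.00369 and 0.0664 in limma. Hoxa11 changed by -0.16, -0.09, -0.14, -0.28 and -0.27 (SE 0.09 each), and Hoxa3 by -0.29, -0.12, -0.26, -0.12 and -0.12 (SE 0.10 each). Hoxa11 passed at 84 and 96 h (adjusted p = 0.0274 and 0.0291, limma) and Hoxa3 at 48 h (adjusted p = 0.0389). The calls at single times often rested on 1 array: at 60 h Hoxa5 passed in 11 of 24 alternatives, at 72 h it had an adjusted p of 0.177 without replicate 1, at 84 h Hoxa11 had 0.436 without replicate 2 and 0.0525 without RAS-ON replicate 1, and at 48 h Hoxa3 passed in 9 of 23. At 96 h Hoxa11 passed in 14 of 23, with adjusted p values of 0.226 and 0.0557 without replicate 1 or 2 of that time and 0.0551 and 0.0512 without RAS-ON replicate 1 or 5. Hoxa9 changed by -0.21, -0.24, -0.28, -0.40 and -0.09 (SE 0.15 each), with its lowest adjusted p, 0.0525, at 84 h. Its other probe set changed by -0.29 at 96 h and passed there (adjusted p = 0.0406, limma). At the other times that probe set did not pass (adjusted p from 0.0526 to 0.508, limma). Meis1 changed by 0.31, 0.11, 0.01, -0.06 and 0.02 (SE 0.20 each), with adjusted p values from 0.274 to 0.973 in limma.

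In order of group means from low to high, Hoxa7 ran 84, 96, 72, 60 and 48 h, at 7.60, 7.62, 7.73, 7.82 and 7.83, and then RAS-ON at 8.51. Pbx3 ran RAS-ON at 7.84, then 60, 48, 96, 84 and 72 h at 8.47, 8.54, 8.94, 8.94 and 9.05. RAS-ON was at the end of the order in all members but Meis1, where its mean of 7.51 lay between those of 84 h (7.45) and 72 h (7.52). The step from RAS-ON to the nearest RAS-OFF group passed the test in the brightest probe sets of Hoxa7, Hoxa10 and Pbx3. It did not pass in Hoxa5 (48 h, adjusted p = 0.108), Hoxa9 (96 h, 0.696), Hoxa11 (60 h, 0.519) or Hoxa3 (60, 84 and 96 h, 0.351 to 0.402). No member passed in any of the 10 pairs of RAS-OFF times, where 10.4% of all genes passed in at least 1 pair. The lowest adjusted p values there were 0.129 for Pbx3 (96 against 60 h) and 0.137 for Hoxa7 (84 against 48 h).

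Within the RAS-OFF times, a straight line through the 5 group means was tested. Pbx3 rose by 0.13 ± 0.04 per 12 h (SE; adjusted p = 0.0343, limma), and Hoxa7 fell by 0.06 ± 0.02 per 12 h (SE; adjusted p = 0.0381, limma). These were 1 member upward, where 5.0% of all genes had a called rise, and 1 member downward, where 8.75% had a called fall. The Pbx3 slope was that of its brightest probe set, and its other probe set had a slope of 0.04 per 12 h (adjusted p = 0.324, limma). Both called slopes also depended on single arrays. The Hoxa7 slope passed in 14 of 28 alternative settings and the Pbx3 slope in 17 of 28. The adjusted p of Pbx3 was 0.227 without RAS-OFF 48 h replicate 1, and 3 arrays left out together (48, 84 and 96 h, replicate 1) gave 0.438 for Pbx3 and 0.564 for Hoxa7. The Hoxa7 slope also lost its call without any single array of 60, 84 or 96 h or 48 h replicate 1, and the Pbx3 slope without 60 h replicate 2, 84 h replicate 2 or either array of 96 h. The other 6 members had slopes from -0.08 to 0.03 per 12 h that did not pass.

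Because the RAS-ON arrays formed 2 sets, each change was recomputed against either set. The sets were chosen after the values were seen. Hoxa7 changed by -0.80 against arrays 1 to 3 and by -0.78 against arrays 4 and 5. Pbx3 changed by 0.81 and 1.17, Hoxa10 by 0.63 and 0.40, and Hoxa5 by -0.32 and -0.25 in the same order, and all of these passed in limma. Hoxa9 changed by -0.10 (adjusted p = 0.444) against arrays 1 to 3 and by -0.45 (adjusted p = 0.000954) against arrays 4 and 5. Meis1 changed by -0.18 (adjusted p = 0.104) and 0.47 (adjusted p = 0.00745), so its direction turned with the set. Hoxa11 passed only against arrays 4 and 5 (adjusted p = 0.012, against 0.132), and Hoxa3 only against arrays 1 to 3 (adjusted p = 0.038, against 0.101). Differences between the sets were not tested.

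**Figure D3:**
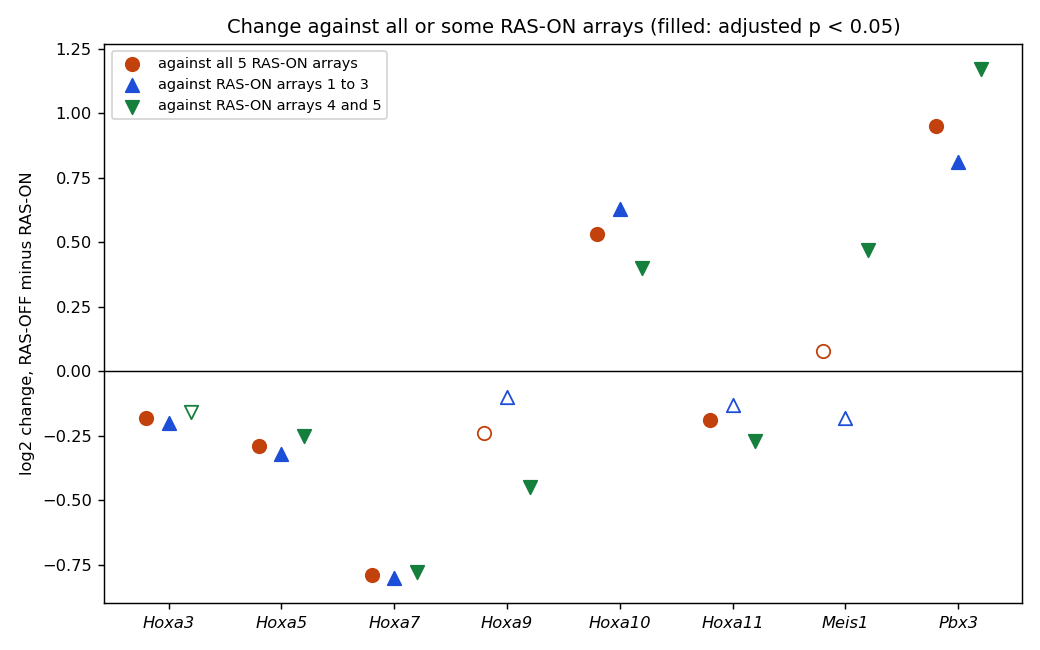
Log2 change, RAS-OFF minus RAS-ON (y axis), of the 8 genes (x axis) against all 5 RAS-ON arrays (circles), arrays 1 to 3 (upward triangles) and arrays 4 and 5 (downward triangles). Filled symbols have an adjusted p below 0.05 in limma. The 3 values of Hoxa7 lie together near -0.79, while those of Meis1 run from -0.18 to 0.47 and those of Hoxa9 from -0.45 to -0.10.

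Markers of other cells moved with the same comparison. All 10 measured erythroid genes rose, with summed intensities of 88956 to 110068 in RAS-OFF and 36861 to 46041 in RAS-ON arrays. All 7 megakaryocyte genes rose, with sums of 22883 to 27734 in RAS-OFF and 15747 to 20149 in RAS-ON arrays. Of 7 stem and early progenitor genes 3 rose and 2 fell, with sums of 7891 to 9861 in RAS-OFF and 4873 to 6331 in RAS-ON arrays. Tal1 weighed most in these sums, with a mean log2 intensity of 12.46 in RAS-OFF and 11.16 in RAS-ON arrays. Kit and Mecom also rose, while Cd34 and Gata2 changed by -1.95 and -0.49 on the log2 scale. All 6 measured genes of azurophil granules, which mark promyelocytes, fell, with sums of 12366 to 18482 in RAS-OFF and 44192 to 60077 in RAS-ON arrays. The stroma and endothelium list had 14 genes, of which 11 rose and 1 fell, with sums of 20777 to 30115 in RAS-OFF and 18067 to 19257 in RAS-ON arrays. The part of these cells in the changes of Hoxa7, Hoxa10, Pbx3 and the other members was not tested. Red pulp macrophage genes rose in 5 of 6 and fell in 1 of 6, neutrophil genes rose in 5 of 8, natural killer cell genes rose in 5 of 5, monocyte genes fell in 4 of 5, and B and T cell genes rose in 3 and fell in 3 of 7.

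The rest of the HOX system is given by counts, to be read beside the 20.1% of all genes called higher and the 28.7% called lower. Of 7 other genes of the HOXA cluster 4 were measured, Hoxa2, Hoxa4, Hoxa13 and Evx1, and 0 passed in limma, with 1 at an unadjusted p below 0.05 and a median change of -0.08. None of the 4 was brighter than the median gene. Of 28 HOXB, HOXC and HOXD genes 24 were measured, 2 rose, 3 fell and 19 did not pass, with a median of -0.03. Hoxc9, a paralog of Hoxa9, fell by 0.29 ± 0.06 on the log2 scale (SE; adjusted p = 0.000701, limma) with all 10 RAS-OFF arrays below every RAS-ON array. Hoxd11 and Hoxd8 had changes of -0.27 ± 0.07 and -0.21 ± 0.06 (SE; adjusted p = 0.00781 and 0.00526, limma). All 24 were on average dimmer than the median gene, so a lack of calls does not show a lack of change.

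Of 10 other TALE homeobox genes and PBX partners 9 were measured, and 3 rose, 1 fell and 5 did not pass, with a median of 0.09. Tgif1, a TALE repressor, fell by 0.55 ± 0.08 (SE; adjusted p = 3.23e-05, limma), with log2 intensities of 7.58 to 8.16 in RAS-OFF and 8.15 to 8.63 in RAS-ON arrays. Its relative Tgif2 rose by 0.29 ± 0.06 (SE; adjusted p = 0.00053), with all 10 RAS-OFF arrays above RAS-ON. Pbxip1, whose product binds PBX proteins and hinders their binding to DNA, rose by 0.42 ± 0.09 (SE; adjusted p = 0.00193), with 8 of 10 RAS-OFF arrays above all RAS-ON arrays.

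Of 18 regulators of the cluster 17 were measured, and 7 rose, 2 fell and 8 did not pass, with a median of 0.12. Mllt3, which encodes AF9, rose by 1.73 ± 0.11 (SE; adjusted p = 1.04e-08, limma). Its log2 intensity was 10.47 to 10.93 in RAS-OFF and 8.69 to 9.33 in RAS-ON arrays. The sources used here do not say whether its probe set also reads the Mll-AF9 fusion transcript. Psip1, which encodes the LEDGF protein that tethers MLL to chromatin, rose by 0.83 ± 0.06 (SE; adjusted p = 3.25e-08), and Aff1, a part of the elongation complex that MLL fusions recruit, rose by 0.38 ± 0.06 (SE; adjusted p = 4.8e-05). In each of these 3 genes all 10 RAS-OFF arrays were above every RAS-ON array.

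Genes reported to be activated by HOXA9 or MEIS1 moved both ways. Of 13 listed 12 were measured, 5 rose, 5 fell and 2 did not pass, with a median of 0.13. Cd34, a surface marker of progenitors that is also in the stem cell list, had the largest mean change of these genes. It ranged from 7.85 to 8.46 in RAS-OFF and from 9.63 to 10.37 in RAS-ON arrays. It fell by 1.95 ± 0.12 (SE; adjusted p = 3.94e-09, limma). Bcl2, which protects cells from apoptosis, fell by 1.57 ± 0.07 (SE; adjusted p = 2.45e-10), and the growth factor gene Igf1 rose by 0.88 ± 0.10 (SE; adjusted p = 2.46e-06). In each of the 3 the groups did not overlap. Of the 2 genes reported to be repressed by HOXA9, Cdkn2a, which encodes cell cycle inhibitors, fell by 2.22 ± 0.13 (SE; adjusted p = 2.85e-09, limma). It ranged from 6.75 to 8.10 in RAS-OFF and from 9.21 to 10.11 in RAS-ON arrays. Cdkn2b, its neighbour, changed by 0.11 with an adjusted p of 0.182. The lists were chosen with results of these arrays known, so their counts are descriptions.

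**Figure D4:**
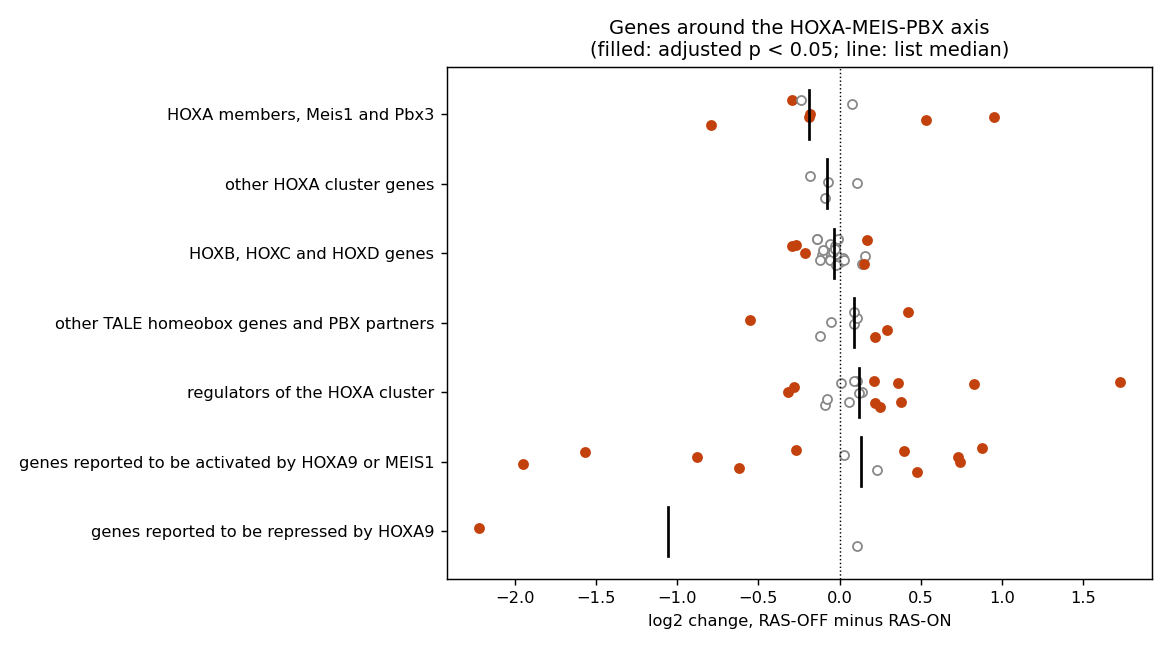
Log2 change, RAS-OFF minus RAS-ON (x axis), of each measured gene of the HOXA members and of 6 lists around them (rows), with filled points for an adjusted p below 0.05 in limma and a line for each list's median. The changes of HOXB, HOXC and HOXD genes lie within 0.30 of 0, while the genes reported to be activated by HOXA9 or MEIS1 run from -1.95 to 0.88.

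The genes most like Hoxa9, Meis1 and Pbx3 were sought by the smallest root mean square difference over the 5 log2 changes, among 9096 genes brighter than the median gene. For Hoxa9 they were Utp25, Gtf2h4 and Rex1bd, at 0.031, 0.037 and 0.04 log2 units. Gtf2h4 encodes a subunit of the general transcription factor TFIIH. For Meis1 they were Smap2, Tbc1d8b and Trim11, at 0.033, 0.035 and 0.035 log2 units, all with changes near 0 after 60 h. For Pbx3 they were Slc6a9, a glycine transporter, Tnfrsf14, a receptor of the tumour necrosis factor family, and Sertad2, at 0.082, 0.085 and 0.089 log2 units. Slc6a9 changed by 0.79, 0.72, 1.09, 1.12 and 1.06 over the 5 times, against 0.70, 0.63, 1.22, 1.10 and 1.10 for Pbx3. With 5 changes that share the RAS-ON arrays, such likeness is a description.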

How the data were processed

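Total RNA of leukemia cells from spleens was isolated, amplified and biotin-labelled with commercial kits, per the labels' protocols. The deposited intensity values are RMA output, per the submitters' processing notes; which version and options the authors used is not stated there. They are on a linear scale, with 0 values at or below 0, and log2 was taken here. Because RMA aligns the arrays, a change of most genes in 1 direction would not be visible.

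Of 45101 probe sets, 34945 had 1 symbol in the platform annotation, 932 several and 9160 none, and 64 were controls. Each of 18193 genes was read by the probe set with the highest mean over 15 arrays, and no dim genes were left out. Groups came from the sample titles. limma 3.58.1 in R 4.3.3 fitted 1 mean per group with default eBayes and two-sided tests. The main contrast was the mean of the 5 RAS-OFF group means minus RAS-ON. The others were each time minus RAS-ON, the slope per 12 h and the 10 pairs of times. Errors of changes are standard errors of the fit. The probe sets were also tested each on its own.

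All members were named, with up to 3 called genes of each list with the largest change and the 3 genes most like Hoxa9, Meis1 and Pbx3, provisional symbols passed over. The members and lists were chosen with earlier results of these data known. Alternatives left out the dimmest 40% of genes, single arrays, single times, 3 arrays or part of the RAS-ON arrays, averaged probe sets, centred or weighted arrays, or changed the model. The RAS-ON sets, and their use for single probe sets, were chosen after the values were seen. The code was tested on simulated data. Promoters came from RefSeq (GRCm38.p6).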

Additional observations from a re-analysis of the deposited data

Results flagged for a closer look

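Within the RAS-OFF times, 2 members had a slope that passed the test, that is, a difference from RAS-ON that varied with time in the fit with all arrays. Among the alternatives the Hoxa7 slope passed in only 14 of 28 and the Pbx3 slope in only 17 of 28. Hoxa7 had a slope of -0.06 per 12 h on the log2 scale (limma, adjusted p = 0.0381), with changes of -0.69 at 48 h and -0.89 at 96 h. Pbx3 had a slope of 0.13 per 12 h (limma, adjusted p = 0.0343), with changes of 0.70 at 48 h and 1.10 at 96 h. This was its brightest probe set, and the other had a slope of 0.04 that did not pass (limma, adjusted p = 0.324). In neither gene did any pair of RAS-OFF times differ after adjustment. Among the 5 RAS-ON values of the 17 member probe sets, 0 had a lowest or highest array that stood apart by Dixon's criterion.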

How the results depend on the processing

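Hoxa5, Hoxa7, Hoxa10 and Pbx3 kept their direction and passed against RAS-ON in all 31, 31, 30 and 31 alternatives that tested them, while Hoxa3 passed in 21 of 30, Hoxa11 in 27 of 30, Hoxa9 in 7 of 31 and Meis1 in 1 of 31. Over single genes, lists and probe sets, 2463 alternative values were computed. Of these, 2245 kept their direction and side of the threshold or, as counts, stayed within a fixed ratio of the main count. A further 101 lost and 40 gained a call, 29 counts moved beyond that ratio and 48 values turned direction. The cause was not tested, except where fewer genes or arrays were tested by construction.

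Without the dimmest 40% of genes, which removes Hoxa3, Hoxa10 and Hoxa11, the members called higher numbered 1 against RAS-ON and 1 at each time, and those called lower 1 at 48 h and 1 at 96 h. With the mean of a gene's probe sets, the members called higher numbered 1 at 48, 72 and 96 h and the upward slopes 0. That mean turned Hoxa3 to 0.03 against RAS-ON (adjusted p = 0.7) and to 0.07, 0.00, 0.02 and 0.11 at 60, 72, 84 and 96 h. It turned Meis1 to 0.01 at 84 h and the Hoxa9 slope to -0.01. With it Hoxa9 gained a call against RAS-ON (-0.24, limma adjusted p = 0.0185) and at 84 h (-0.32, limma adjusted p = 0.0419).

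Without 3 RAS-OFF arrays (48, 84 and 96 h replicate 1), 2834 genes were called at 48 h (4987 with all arrays), 4217 at 96 h (6847) and 448 for the slope (2501). The members called higher then numbered 1 at 48, 72 and 96 h, those called lower 1 at 48, 60 and 96 h, and slopes 0 upward and 0 downward. Meis1 turned to -0.06 at 96 h and the Hoxa9 slope to -0.02. Without the times 48, 60 or 96 h, 1182, 1646 and 1437 genes had a called slope, and without 48, 60, 84 or 96 h 0 members had one in either direction. The Hoxa5 slope was 0.01 without 48 h and the Hoxa9 slope -0.06 without 96 h.

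Against RAS-ON arrays 1 to 3 only, 1 member was lower at 96 h, Hoxa9 turned to 0.05 at 96 h, and Meis1 to -0.18 against RAS-ON and to -0.15, -0.25 and -0.24 at 60, 72 and 96 h. Trim11 turned to -0.05, the Hoxa3 probe set at 0.00 to 0.12 and the brightest Meis1 probe set to -0.18. Against RAS-ON arrays 4 and 5 only, 1 member was higher at 72 and at 96 h, Meis1 turned to 0.32 at 84 h, Utp25 to 0.02 and the dim Hoxa10 probe set to -0.09. Array weights left 1 member lower at 96 h and turned Meis1 to -0.06 at 72 h and -0.05 at 96 h. Centring the arrays left 1 member lower at 96 h and 0 with a downward slope.

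Replicate numbers gave no clear pairing of the arrays. Over 30 pairs with the same number, deviations from the group means correlated at -0.24 to 0.22, with 5 above 0.1. With 2 arrays per RAS-OFF time these deviations mirror each other, so the 30 values are not all separate and the check is weak. Of 12 arrays 4 correlated best with an array of their own number. With the replicate number as a block, 7970 genes were called (8875 without it), and the members called lower numbered 2 against RAS-ON and 1 at 48, 60, 72 and 96 h, with 0 downward slopes. By construction the block compares only RAS-ON replicates 1 and 2, since replicates 3 to 5 have no array of their number in RAS-OFF. Under the block Hoxa9 turned to 0.04 against RAS-ON and to 0.08, 0.05, 0.00 and 0.20 at 48, 60, 72 and 96 h. Meis1 turned to -0.14 against RAS-ON and to -0.11, -0.21 and -0.19 at 60, 72 and 96 h.

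With each array left out in turn, the genes called ran from 2911 to 5441 at 48 h, 2417 to 5031 at 60 h, 3436 to 6019 at 72 h, 4283 to 6979 at 84 h and 1109 to 2757 for the slope, lowest without 1 RAS-OFF array of the time (48 h replicate 1 for the slope). Members called higher ran from 1 to 2 at 60, 72 and 96 h and from 0 to 1 for the slope. Members called lower ran from 1 to 2 at 48 and 60 h, 1 to 3 at 72 and 96 h and 0 to 1 for the slope. The Hoxa5 slope ran from -0.04 to 0.00 and the Hoxa9 slope from -0.01 to 0.03. Meis1 ran from -0.08 to 0.16 against RAS-ON, -0.05 to 0.20 at 60 h, -0.15 to 0.16 at 72 h, -0.23 to 0.10 at 84 h and -0.13 to 0.11 at 96 h, lowest without RAS-ON replicate 4 except at 84 h. A lone array left at a time is assumed to vary as the other groups do. With 2 arrays per time, small changes of dim genes such as Hoxa3 and Hoxa11 may go undetected.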
